A study of Mus musculus with 53 samples.

Results

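Genomic regions that carried the histone mark H3K4me1 in one pluripotent culture medium and not in the other were compared in SGGC mouse embryonic stem cells (ESCs). The regions came from 4 of the 53 CUT&RUN libraries of the series: 2iLIF (clones B9 and B12) and NACL (the same clones). Peaks that shared at least 1 bp were merged, and a merged region was called 2iLIF-only when both 2iLIF libraries and neither NACL library had a peak in it, NACL-only in the opposite case, and all-4 when every library had one. With all deposited peaks there were 58100 merged regions, of which 6854 were 2iLIF-only, 661 NACL-only and 12616 all-4. The other 37969 had any other pattern. The libraries differed in their number of peaks, so each was also held to its 24700 strongest peaks, the number in the smallest list. At that equal peak number 36567 regions remained, with 3185 that were 2iLIF-only, 2241 NACL-only and 9960 all-4.

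SGGC is a line derived from E14JU ESCs that reports SOX2 with GFP and GATA6 with mCherry. A clone is a separate isolate of one line and not a separate animal. 2iLIF combines the MEK inhibitor PD0325901 with the GSK3 inhibitor CHIR99021 and the cytokine LIF. NACL is a defined N2B27 medium with Activin A, CHIR99021 and LIF, so it holds no MEK inhibitor, and it shares its cytokines with the medium used for naive extra-embryonic endoderm (nEnd). Cells had grown for at least 4 passages in their medium before they were profiled. In CUT&RUN an antibody directs micrococcal nuclease to a chromatin feature, and the released DNA is sequenced. The wider study asked how epiblast and primitive endoderm factors expressed in the same cell affect differentiation and factor binding, and enhancer marks in defined cultures served as a reference.

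H3K4me1 is laid down mainly by MLL3 and MLL4 and marks enhancers, whether they are active or primed, and the flanks of promoters. Active enhancers also carry H3K27ac, while regions with H3K4me1 alone are often described as primed. Naive ESCs held in 2iLIF have little ERK signalling, and withdrawal of MEK inhibition allows FGF-ERK target genes and, with time, formative genes of the early post-implantation epiblast to be expressed. Activin signals through SMAD2 and SMAD3, and CHIR99021 stabilises beta-catenin, the partner of TCF/LEF factors, in both media.

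Limits of the libraries need to be stated before the results. The titles of both NACL libraries carry an extra numeric tag that no source explains. Neither 2iLIF library has it, so tag and medium cannot be told apart. Read depth is unknown. The lists held 33252 (B9) and 52599 (B12) peaks in 2iLIF and 30698 (B9) and 24700 (B12) in NACL. They covered 88.9, 206.1, 86.2 and 79.5 Mb in the same order, so 2iLIF B12 stands apart. Even at equal peak number that library covered 138.1 Mb, against 74.99 to 79.5 Mb in the other libraries. Peak signal is not comparable between libraries, and it served here to rank the peaks of one list against each other.

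Sequence around the strongest maximum is shown for 5 medium-only regions, as examples of what differed between the media. They were chosen after their values were seen: the region near Dglucy is the strongest 2iLIF-only region with H3K27ac, the one in Adk is the only one among the 10 strongest NACL-only regions with no 2iLIF peak in the full lists, and the others lie near genes of the naive, formative and ERK lists described further on. Each is 200 bp of the plus strand of GRCm38 from RefSeq. Capitals mark matches, on either strand, to the motif strings given with the motif results.
Dglucy, 2iLIF-only, intron, chr12:100814653-100814852: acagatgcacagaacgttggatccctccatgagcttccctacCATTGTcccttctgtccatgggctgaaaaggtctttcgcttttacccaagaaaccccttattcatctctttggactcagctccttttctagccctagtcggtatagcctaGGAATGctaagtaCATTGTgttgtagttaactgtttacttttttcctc
Zfp42, 2iLIF-only, intergenic, chr8:43356642-43356841: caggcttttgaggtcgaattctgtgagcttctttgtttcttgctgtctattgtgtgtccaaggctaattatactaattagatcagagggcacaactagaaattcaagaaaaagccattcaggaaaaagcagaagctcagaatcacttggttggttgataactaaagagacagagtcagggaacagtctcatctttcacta
Adk, NACL-only, intron, chr14:21086974-21087173: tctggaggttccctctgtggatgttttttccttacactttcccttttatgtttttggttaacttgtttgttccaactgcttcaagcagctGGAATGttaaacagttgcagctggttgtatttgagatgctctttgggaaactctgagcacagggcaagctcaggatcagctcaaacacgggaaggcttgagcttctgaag
Lef1, NACL-only, intron, chr3:131144135-131144334: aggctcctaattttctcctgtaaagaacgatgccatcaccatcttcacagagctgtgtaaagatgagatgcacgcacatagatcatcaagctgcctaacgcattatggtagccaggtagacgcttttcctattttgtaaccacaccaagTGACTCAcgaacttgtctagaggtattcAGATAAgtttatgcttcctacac
Myc, NACL-only, intron of a neighbouring gene, chr15:62105604-62105803: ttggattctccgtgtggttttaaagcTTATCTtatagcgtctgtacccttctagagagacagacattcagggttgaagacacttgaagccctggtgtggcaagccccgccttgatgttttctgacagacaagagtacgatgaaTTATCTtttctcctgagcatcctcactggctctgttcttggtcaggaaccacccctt

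The balance between the media depended on how the lists were cut. With all peaks 2iLIF-only regions outnumbered NACL-only regions, with 6854 against 661, and at equal peak number they still did, with 3185 against 2241. When each library was instead held to the covered bases of the least covered one, a setting chosen after the data were seen, the order was the opposite, with 912 2iLIF-only and 3563 NACL-only regions. That cut left 2iLIF B12 with 9615 peaks and the others with 24700 to 27468. A library left out also moved the numbers: with all peaks there were 27091 2iLIF-only regions without 2iLIF B9, and NACL-only regions numbered 3341 without 2iLIF B12, 1655 without NACL B9 and 4183 without NACL B12. No direction in the number of regions held under every cut, and regions are not replicates, so no test was made on these numbers.

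**Figure D1:**
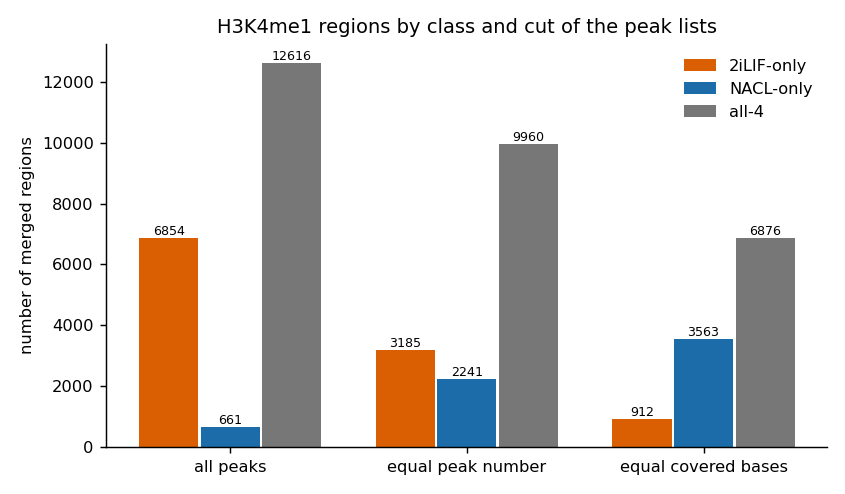
Number of merged H3K4me1 regions (vertical axis) of each class under 3 cuts of the peak lists, with the number printed on each bar. The 2iLIF-only bar falls from 6854 to 912 from all peaks to equal covered bases, while the NACL-only bar rises from 661 to 3563.

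Regions of each class were also looked up in the full lists, which add peaks unequally: NACL B12 has none beyond the 24700, while 2iLIF B12 lists 52599, so the shares below follow in part from list length and are not a contrast between the media. Of the 3185 regions that were 2iLIF-only at equal peak number, 2778 (87.2%) had no NACL peak when all peaks were used, and the other 407 gained a NACL B9 peak. Only 498 (22.2%) of the 2241 NACL-only regions had no 2iLIF peak in the full lists. A weaker 2iLIF B12 peak was present in 1684 of them (75.2%) and a weaker 2iLIF B9 peak in 513 (22.9%). NACL-only at equal peak number therefore does not mean that no 2iLIF library had a peak there, mainly because of 2iLIF B12.

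Once the lists were of equal length, libraries of the same medium shared more of their covered bases than libraries of the same clone. The 2iLIF libraries shared 45.4% of the bases covered by either, and the NACL libraries 46.0%. The B9 libraries shared 40.6% across media and the B12 libraries 38.5%, while pairs with neither in common shared 39.9% and 35.3%. Among the 1000 strongest peaks the overlap was 53.6% and 38.0% within a medium, 35.9% and 32.2% within a clone and 30.2% and 33.1% with neither shared. Counted in peaks the order was not always kept, as 73.0% of NACL B12 peaks overlapped 2iLIF B12 and 69.2% NACL B9. With all peaks the 2iLIF pair, which covered 88.9 and 206.1 Mb, shared 39.4%, no more than the B9 pair across media (39.9%).

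Clones left a mark of their own on chromosome 14. Among regions at equal peak number, 604 were present in B9 in both media and in no B12 library, and 175 of these (28.97%) lay on chromosome 14. The reverse pattern, B12 in both media and B9 in neither, held 1216 regions, of which 12 (0.987%) were on that chromosome. Per library, 4.27% (2iLIF) and 4.02% (NACL) of the B9 peaks lay there and 2.51% and 1.82% of the B12 peaks. The medium-only classes were less affected, with 3.36% of 2iLIF-only, 1.29% of NACL-only and 2.28% of all-4 regions. Leaving out chromosome 14 left 6567 2iLIF-only and 652 NACL-only regions with all peaks.

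Peaks far above the cut mostly lay in all-4 regions. The lists were cut on max signal, so peaks near the cut miss a partner more easily by construction, and the shares by quintile of that signal are a description. In the top quintile of peaks by max signal, with 24700 peaks per library, 83.0% to 85.9% of the peaks of each library lay in all-4 regions. In the bottom quintile this share was 34.2% in 2iLIF B9, 32.3% in NACL B9, 27.2% in NACL B12 and 11.1% in 2iLIF B12. Peaks in regions of the own medium only made up 3.16% to 6.07% of the top quintile and 12.1% to 19.4% of the bottom quintile. Every library had, at equal peak number, medium-only peaks less often among its strongest peaks than among its weakest. With all peaks this held in 3 of the 4 libraries, and in 2iLIF B12 the order was the opposite, with 9.96% in the top quintile and 6.08% in the bottom one. Held to the 1000 strongest peaks per library, the lists gave 148 all-4, 213 2iLIF-only and 124 NACL-only of 2418 regions, so the very strongest peaks were not the same in all libraries.

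**Figure D2:**
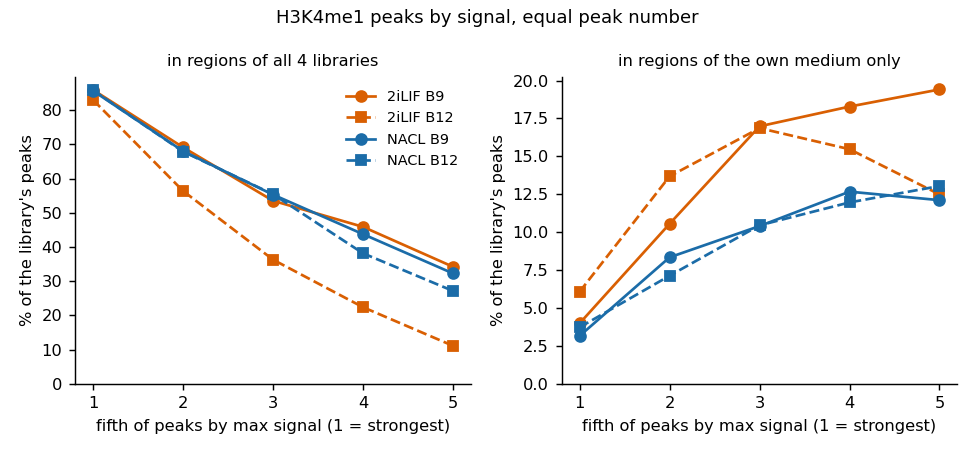
Share of each library's 24700 strongest peaks (vertical axes, %) that lay in all-4 regions (left) or in regions of their own medium only (right), by quintile of max signal (horizontal axes, 1 is the strongest quintile). Circles with solid lines are B9 and squares with dashed lines B12. The share in all-4 regions falls from 83.0% to 85.9% in the top quintile to between 11.1% and 34.2% in the bottom quintile.

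Medium-only peaks were narrower than the peaks of all-4 regions in every library. Classes were made by overlap, and a wider peak meets peaks of other libraries more easily by construction, so the widths are a description. With all peaks, the ratio of their median widths was 0.668 in 2iLIF B9, 0.512 in 2iLIF B12, 0.766 in NACL B9 and 0.781 in NACL B12, and at equal peak number it lay between 0.568 and 0.784. In the top quintile of 2iLIF B9 peaks at equal peak number, the medians were 2864 bp in 2iLIF-only and 4896 bp in all-4 regions. In the bottom quintile they were 1662 and 1711 bp, so there the gap lay among the strong peaks. NACL B9 had 2653 and 4488 bp in its top quintile and 1892 and 1865 bp in its bottom quintile. In 2iLIF B12 the medians still differed in the bottom quintile, with 2799 and 3299 bp.

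Neither median peak width nor the share of peaks near a transcription start site (TSS, within 1 kb) differed between the media beyond the spread of the libraries. The median width was 1983 bp in 2iLIF B9, 2766 bp in 2iLIF B12, 2148 bp in NACL B9 and 2526 bp in NACL B12. The libraries of the media overlapped, and the difference of 37.5 bp had p = 1 (exact permutation test, two-sided, 2 libraries against 2, which cannot give p below 0.33). The share near a TSS was 18.9%, 25.6%, 22.8% and 24.3% in the same order. Its difference of -1.26 percentage points also had p = 1 (exact permutation test, two-sided). The differences were 866.8 bp and 0.22 percentage points at equal peak number, both with p = 1 by the same exact test and with the clones in opposite directions.

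Where the medium-only regions lay did differ between the classes, and under each cut of the lists the order was the same. The median distance from the strongest maximum of a region to the nearest TSS was 12.1 kb for 2iLIF-only, 5.67 kb for NACL-only and 7.20 kb for all-4 regions with all peaks. It was 13.2, 5.10 and 7.36 kb at equal peak number and 14.6, 5.29 and 7.91 kb at equal covered bases. Each clone taken alone at equal peak number gave it too, with 10.7 kb for 2iLIF-only and 5.72 kb for NACL-only regions in B9, and 11.7 and 5.94 kb in B12. At equal peak number 17.1% of 2iLIF-only regions lay over 50 kb from any TSS, against 3.93% of NACL-only and 6.02% of all-4 regions. Within 1 kb of a TSS were 6.22%, 11.1% and 7.65% of them. By annotation, 46.6% of 2iLIF-only maxima were intergenic and 44.5% intronic, compared with 23.6% and 60.6% of NACL-only maxima. Regions share their 4 libraries, so these are descriptions of the classes and carry no p-value.

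**Figure D3:**
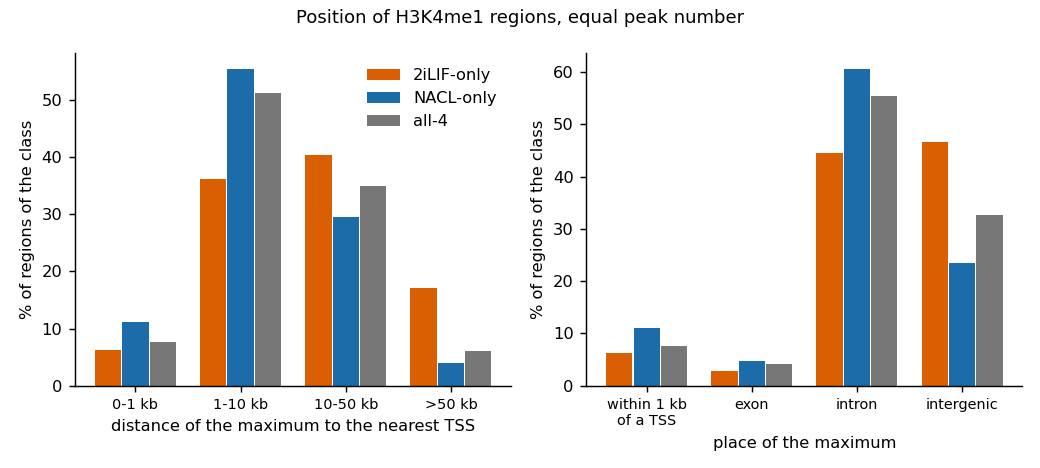
Distance of each region's strongest maximum to the nearest TSS (left, in 4 bins) and its place in the GENCODE M21 annotation (right), as % of the regions of a class at equal peak number. The 2iLIF-only bars are the highest over 50 kb (17.1%) and in intergenic sequence (46.6%), and the NACL-only bars the highest from 1 to 10 kb (55.5%) and in introns (60.6%).

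Base composition followed the same split. In 500 bp around the maximum, median GC content was 43.8% in 2iLIF-only, 46.0% in NACL-only and 45.4% in all-4 regions at equal peak number. At least 10 CpGs occurred in 5.43%, 12.8% and 7.92% of these windows. Masked repeats made up 22.2%, 17.3% and 18.8% of the bases on average. Chromosome X held 3.52% of 2iLIF-only regions, 0.446% of NACL-only and 0.633% of all-4 regions, and chromosome 11 held 4.58%, 9.86% and 6.88%.

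Strings that resemble the binding motifs of KLF, OCT, ESRRB, SOX, TEAD, TCF/LEF and STAT factors were more frequent in 2iLIF-only than in NACL-only regions, and a ZIC string less frequent. Both strands of the 500 bp windows were searched, and a match is not evidence of binding. The KLF string CCACACCC was in 9.45% of 2iLIF-only and 5.31% of NACL-only windows at equal peak number, against 7.94% of all regions. The OCT string ATGCAAAT, bound by POU factors such as OCT4, was in 5.97% and 3.88% (all regions 4.79%), and the ESRRB string TCAAGGTCA in 3.52% and 2.45% (3.79%). The SOX string CATTGT was in 30.4% and 25.97% (27.8%), TEAD (GGAATG) in 30.4% and 25.4% (27.4%), TCF/LEF (CTTTGAT) in 11.7% and 9.15% (10.1%), and STAT (TTCCNGGAA), the motif of the LIF effector STAT3, in 2.54% and 2.01% (2.10%). The ZIC string CAGCAGG had the opposite order, with 13.8% of 2iLIF-only and 20.4% of NACL-only windows (16.4%). All 8 orders were the same with all peaks, and within each clone at equal peak number, for example 9.04% and 5.25% for KLF in B9, 8.98% and 6.42% in B12, and for ZIC 15.2% and 18.4% in B9 and 13.4% and 20.5% in B12.

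Of the other strings, OTX, CTCF and AP-1 were more frequent in NACL-only than in 2iLIF-only windows at equal peak number, also within each clone, while ETS, GATA and SMAD had no order shared by both clones. SMAD (GTCTAGAC) was in 0.408% of 2iLIF-only and 0.402% of NACL-only windows (0.468% of all regions). AP-1 (TGACTCA), which ERK signalling can engage, was in 9.67% and 10.4% (10.1%), ETS (CCGGAAG) in 1.85% and 2.86% (2.34%), OTX (GGATTA) in 18.3% and 21.6% (19.99%), the string AGATAA of the GATA factors in 27.6% and 28.8% (26.8%) and CTCF (CCACNAGG) in 6.28% and 7.54% (7.02%). GATA was higher in 2iLIF-only windows in B12 alone (27.1% and 25.6%) and lower in B9 alone (26.1% and 28.6%). The part that base composition had in these shares was not tested.

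H3K27ac and SOX2, which played no part in the choice of regions, were then read at the medium-only regions. For each library, the share of 2iLIF-only regions with a peak minus the share of NACL-only regions with one was compared between media. With all peaks this difference for H3K27ac was 22.8 percentage points in 2iLIF B9 and 15.1 in 2iLIF B12, against 9.63 in NACL B9 and 2.74 in NACL B12. Both 2iLIF libraries lay above both NACL libraries, by 12.8 percentage points on average (18.9 ± 5.42 and 6.19 ± 4.87, SD, n = 2 each). The exact permutation test (two-sided) gave p = 0.33, the smallest that 2 libraries against 2 allow. The difference between media was 9.87 percentage points at equal peak number, and with all peaks it was 13.1 within B9 and 12.4 within B12. In all 4 libraries 2iLIF-only regions carried H3K27ac more often than NACL-only regions, and that excess was larger in 2iLIF than in NACL in both clones, in a design too small to pass a threshold.

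The lists of H3K27ac held 210904 to 401853 peaks, so most regions of any class carried one. Of the 2iLIF-only regions at equal peak number, 93.2% and 95.3% held a 2iLIF H3K27ac peak (B9, B12) and 87.5% and 87.6% a NACL one. NACL-only regions held a peak in 76.2% and 82.6% of cases in 2iLIF and in 79.4% and 85.7% in NACL. All-4 regions were near the ceiling, with 96.7% to 97.95%. In 1 kb around the maximum, NACL B12 marked 79.97% of 2iLIF-only and 80.1% of NACL-only regions.

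SOX2, the pluripotency factor reported by GFP in this line, did not separate the media with all its peaks. The difference of shares was 13.3 and 9.94 percentage points in 2iLIF (B9, B12) and 12.2 and 7.49 in NACL, with overlapping libraries. The difference between the media of 1.76 percentage points had p = 0.667 (exact permutation test, two-sided), and it was -0.614 without NACL B12. Within the clones it was 1.06 in B9 and 2.45 in B12, and 0.36 and 1.79 at equal peak number, of one sign in both. With the same number of SOX2 peaks (8203) in each library it was 4.71 percentage points, and the libraries no longer overlapped (exact permutation p = 0.33, the smallest possible). In every one of the 4 SOX2 libraries, 2iLIF-only regions were bound more often than NACL-only regions: at equal peak number 24.3% against 7.41% in 2iLIF B9, 16.6% against 4.73% in 2iLIF B12, 37.0% against 20.5% in NACL B9 and 22.5% against 12.5% in NACL B12. All-4 regions, the widest class, had the highest share in each, from 24.6% to 57.2%. Of all regions, 19.65%, 13.3%, 34.8% and 21.9% held a peak of these libraries, in the order above. In the NACL libraries the 2iLIF-only shares thus lay near those of all regions, and the NACL-only shares below them. The 2iLIF-only regions were wider than the NACL-only regions, with medians of 3734 and 2956 bp, and in 1 kb around the maximum the order was kept, with 15.8% against 4.78% in 2iLIF B9 and 25.1% against 13.5% in NACL B9. In that narrower window all-4 regions had 12.5% and 24.8% in these libraries, below the 2iLIF-only regions, and in NACL B12 13.99% against 13.9%.

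In the nEnd libraries the order of the medium-only classes was the opposite. The nEnd line is an in vitro counterpart of primitive endoderm, the extra-embryonic lineage that GATA6 specifies. H3K27ac of nEnd was present, at equal peak number of the ESC libraries, at 43.6% (B9) and 46.0% (B12) of NACL-only regions and at 14.3% and 17.2% of 2iLIF-only regions. For all-4 regions it was 43.5% and 46.5%. H3K4me1 of nEnd, from 2 libraries of B9, was present at 58.1% and 28.4% of NACL-only and at 27.6% and 16.3% of 2iLIF-only regions. The first of these nEnd libraries lacks the numeric title tag and the second carries it. GATA6 peaks of nEnd lay in 15.3% (B9) and 17.6% (B12) of NACL-only and in 9.14% and 11.6% of 2iLIF-only regions, both below all-4 regions (25.5% and 30.8%). Over all regions the shares were 30.45% and 33.2% for H3K27ac, 45.9% and 25.4% for H3K4me1 and 14.6% and 18.0% for GATA6. For GATA6 the NACL-only regions thus lay near the share of all regions, and the 2iLIF-only regions below it. With all peaks the NACL-only shares stayed above the 2iLIF-only shares in these 6 nEnd libraries, for example 36.8% against 14.95% for H3K27ac of B9.

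ESCs sorted as SOX2+ from KOSR, a serum-replacement culture of clone B12, carried H3K4me1 more often at NACL-only regions at equal peak number. Their H3K4me1 was at 75.2% and 81.2% of NACL-only regions in the experiments labelled A and B, at 57.4% and 66.1% of 2iLIF-only regions, and at 94.6% and 96.6% of all-4 regions. With all peaks the gap was small, at 55.1% against 51.2% in A and 65.4% against 60.3% in B. With B held to the 58085 peaks of A it was 50.5% against 49.8%, and in 1 kb around the maximum 43.9% against 44.9%, so no preference was kept there. SOX2 of the same sorted cells had the opposite order in all 3 libraries at equal peak number, with 20.9%, 21.1% and 14.2% of 2iLIF-only and 10.9%, 13.1% and 6.87% of NACL-only regions (A, A1 and B).

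**Figure D4:**
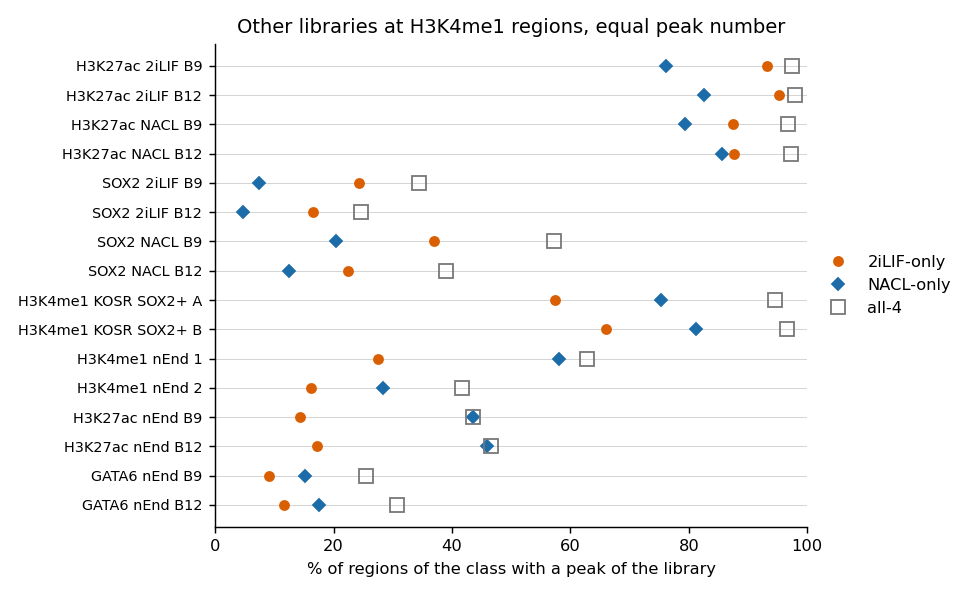
Share of regions of each class (horizontal axis, %) that hold a peak of another library (rows), at equal peak number of the 4 H3K4me1 libraries. Circles are 2iLIF-only, diamonds NACL-only and open squares all-4 regions. The SOX2 rows (2iLIF and NACL libraries) have the circles to the right of the diamonds, while the nEnd rows and the H3K4me1 rows of KOSR SOX2+ cells have the diamonds to the right.

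Genes were next compared by the bases that H3K4me1 peaks covered in the gene body and 20 kb on both sides. A gene was called higher in a medium when its lower library had at least 1.5 times, and at least 1000 bp more than, the higher library of the other medium. Of 21938 protein-coding genes, 2396 (10.9%) were called higher in 2iLIF and 168 (0.766%) in NACL with all peaks. It was 1525 (6.95%) and 1123 (5.12%) at equal peak number, and at equal covered bases 764 (3.48%) and 2525 (11.5%). Without 2iLIF B9 the 2iLIF calls with all peaks numbered 10788, and 4335 without NACL B9. NACL calls numbered 2574 without 2iLIF B12, 349 without NACL B9 and 802 without NACL B12. Without 2iLIF B9 at equal peak number there were 5385 2iLIF calls, and without 2iLIF B12 3185 NACL calls. A library left out can only add calls by the way a call is made, so these counts show how much each library holds back. The percentages are the background against which the gene lists are read.

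Markers of pluripotent cells were covered in every library. The windows of 8 of them (Pou5f1, Sox2, Nanog, Esrrb, Zfp42, Klf4, Tfcp2l1 and Sall4) held 194.4 and 313.5 kb of H3K4me1 peaks in 2iLIF (B9, B12) and 140.3 and 189.6 kb in NACL with all peaks, and none was at 0. For 8 primitive endoderm markers the sums were 22.1 and 62.95 kb in 2iLIF and 31.8 and 23.5 kb in NACL. Sox7 was at 0 in both 2iLIF libraries and in NACL B12, Pdgfra in 2iLIF B9, Gata4 in 2iLIF B12 and NACL B12, and Dab2 in NACL B12. Sox7 and Gata4 lie on chromosome 14, where B12 libraries have fewer peaks, and the part of this in their zeros was not tested. The 6 trophoblast markers held 27.8 and 93.0 kb in 2iLIF and 23.9 and 27.3 kb in NACL, and the 4 markers of 2-cell-like cells 0 kb in all libraries but 2iLIF B12 (5.73 kb).

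Some formative genes had more H3K4me1 in NACL once the lists were of equal length. At equal peak number 5 of the 15 genes found were called higher in NACL and 0 in 2iLIF, and the other 10 did not pass, against 5.12% and 6.95% of all genes. With all peaks none was called in either direction, against 0.766% and 10.9% of all genes. Lef1, the TCF/LEF factor induced on exit from the naive state (ENSMUSG00000027985, chr3:131110471-131224356), had 0 kb in 2iLIF B9, 2.18 kb in 2iLIF B12, 13.8 kb in NACL B9 and 24.1 kb in NACL B12 at equal peak number, and the groups did not overlap. In the full lists 2iLIF B12 had 30.1 kb there, more than either NACL library, and 2iLIF B9 still 0. At Lef1, 4 regions were NACL-only at equal peak number, and the strongest, in an intron, ranked above 97.9% of the NACL B9 peaks and 58.2% of the NACL B12 peaks; it is one of the sequences shown. None of them was NACL-only in the full lists.

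Dnmt3b, a de novo DNA methyltransferase that rises as cells leave the naive state, had 4.44 and 5.27 kb in 2iLIF (B9, B12) and 10.04 and 9.10 kb in NACL at equal peak number. Pou3f1 (OCT6), a formative POU factor, had 0 kb in both 2iLIF libraries and 5.30 and 3.76 kb in NACL. Fgf5, the classical marker of the formative epiblast, had 0 kb in both 2iLIF libraries and 1.97 and 2.17 kb in NACL. The Wnt receptor gene Fzd2 had 0 and 1.06 kb in 2iLIF and 2.77 and 4.22 kb in NACL. The libraries of the media do not overlap in a called gene, by the way a call is made. With all peaks Pou3f1 and Fgf5 kept that order, at 1.44, 2.80, 5.30 and 3.76 kb and at 0, 1.42, 3.41 and 2.17 kb in the order 2iLIF B9, 2iLIF B12, NACL B9, NACL B12. Dnmt3b (4.44, 10.29, 10.04 and 9.10 kb) and Fzd2 (0, 5.88, 2.77 and 4.22 kb) did not, since 2iLIF B12 had the highest value. At equal covered bases 8 were called, against 11.5% of all genes. With all peaks the list depended on single libraries: 4 genes were called higher in 2iLIF without NACL B9 (19.8% of all genes), 2 without 2iLIF B9 (49.2%), and 9 higher in NACL without 2iLIF B12 (11.7%). Of the 4 genes, Cdh2, Otx2, Zic2 and Zic5, the last 3 lie on chromosome 14, where B12 libraries have fewer peaks. At equal peak number the NACL calls numbered 9 without 2iLIF B12 (14.5% of all genes) and 8 without NACL B12 (9.90%), with Otx2 called higher in 2iLIF without NACL B9 (11.5%).

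Some genes of the ERK response, which MEK inhibition holds down, were called higher in NACL and not in 2iLIF. This held at equal peak number for 4 of 20, Dusp4, Dusp5, Spred1 and Spry4, against 5.12% of all genes, and with all peaks for 2 of 20, Spred1 and Spry4, against 0.766%. All of them encode inhibitors that ERK signalling induces as negative feedback. Spred1 (ENSMUSG00000027351, chr2:117121374-117182279), whose product restrains RAF activation, had 1.93 and 1.94 kb in 2iLIF (B9, B12) and 19.5 and 16.1 kb in NACL at equal peak number. With all peaks it had 3.14 and 9.96 kb in 2iLIF and 19.5 and 16.1 kb in NACL. Spry4, a Sprouty inhibitor of receptor tyrosine kinase signalling, had 11.9 and 19.4 kb in 2iLIF and 32.5 and 35.5 kb in NACL. With all peaks the 2iLIF values of Spry4 were 11.9 and 21.6 kb, and the groups stayed apart. The dual-specificity phosphatase gene Dusp4 had 0 kb in both 2iLIF libraries and 4.31 and 3.90 kb in NACL at equal peak number, and Dusp5 0, 2.07, 4.75 and 7.63 kb in the order used above.

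NACL-only regions at ERK genes were also counted. Of the 20 genes, 8 were the nearest gene of a NACL-only region at equal peak number and 3 that of a 2iLIF-only region, against 8.14% and 10.4% of all genes. The 8 were Myc, Spred1, Dusp4, Etv4, Etv5, Junb, Spry2 and Spry4. In the full lists it was 5 and 7 of 20, against 2.71% and 19.2%. Spred1 had 2 NACL-only regions under both cuts, in introns 15.3 and 54.6 kb from the TSS. Etv4, an ETS factor downstream of FGF, had the same NACL-only region under both cuts, 6.45 kb from its TSS. Near Myc, 4 regions were NACL-only at equal peak number, 78.2 to 152.4 kb from its TSS, and 1 of them, from 62104910 to 62108292 on chromosome 15, also in the full lists. It ranked above 75.3% (B9) and 81.0% (B12) of the NACL peaks, and its sequence is shown above. The gene windows again depended on single libraries: with all peaks 6 of the 20 ERK genes were called higher in 2iLIF without 2iLIF B9 (49.2% of all genes), 3 without NACL B12 (15.6%), and 7 higher in NACL without 2iLIF B12 (11.7%). At equal peak number 9 were called higher in NACL without 2iLIF B12 (14.5% of all genes) and 3 higher in 2iLIF without 2iLIF B9 (24.5%). With wider flanks or a stricter fold limit no ERK gene was called with all peaks.

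**Figure D5:**
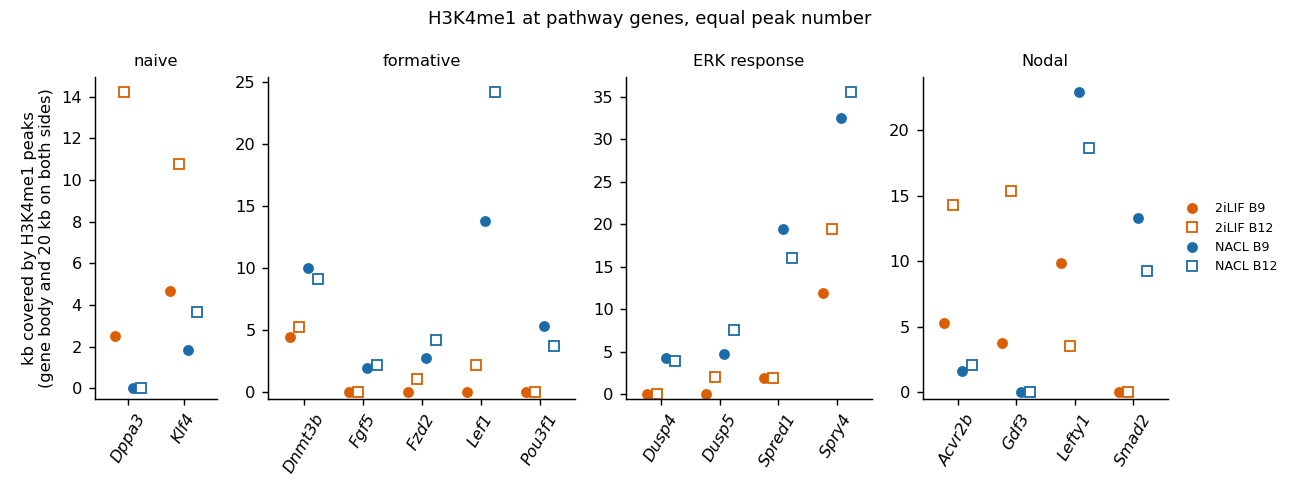
H3K4me1 coverage (vertical axes, kb of peaks in the gene body and 20 kb on both sides) at equal peak number, for genes of 4 lists that were called with all peaks or at equal peak number. Each point is 1 library, filled circles B9 and open squares B12, in orange for 2iLIF and blue for NACL. All formative and ERK response genes shown have both NACL points above both 2iLIF points, which the call that chose them requires. Dppa3 and Gdf3 have both NACL points at 0.

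Naive pluripotency genes were mostly covered in both media. Of 18 genes, 1 was called higher in 2iLIF at equal peak number (Dppa3) and 2 with all peaks (Dppa3 and Klf4), with none called higher in NACL. Those counts lie near the background of 6.95% and 10.9%. Dppa3 (Stella, ENSMUSG00000046323, chr6:122626410-122630272), a factor that protects the maternal genome from DNA demethylation, had 2.51 and 14.2 kb in 2iLIF (B9, B12) and 0 kb in both NACL libraries at equal peak number, and 3.92 and 14.2 kb against 0 kb with all peaks. Gdf3, a TGF-beta ligand whose window overlaps that of Dppa3 on chromosome 6, had 3.78 and 15.3 kb in 2iLIF and 0 kb in NACL, so both genes share part of their values. Klf4, a LIF target and reprogramming factor, had 7.65 and 19.8 kb in 2iLIF and 4.13 and 3.68 kb in NACL with all peaks. Without 2iLIF B9, 13 of the 18 naive genes were called higher in 2iLIF with all peaks, against 49.2% of all genes, and 6 without NACL B12, against 15.6%. These were 8, against 24.5%, and 5, against 11.5%, at equal peak number. At equal peak number 7 of the 18 genes were the nearest gene of a 2iLIF-only region and 3 that of a NACL-only region, against 10.4% and 8.14% of all genes, and in the full lists 11 and 2 of them, against 19.2% and 2.71%.

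The 7 genes were Nr5a2, Zfp42, Fbxo15, Klf5, Sox2, Tcl1 and Tfcp2l1, and the 3 were Sox2, Sall4 and Pecam1. Several of these 2iLIF-only regions lay outside the gene windows. Zfp42 (Rex1), a marker of the naive state, had 2 of them, 24.7 and 49.8 kb from its TSS, under both cuts. The farther one ranked above 78.0% (B9) and 88.3% (B12) of the 2iLIF peaks and is among the sequences shown. Its gene window overlapped between the media at equal peak number, with 9.50 and 9.58 kb in 2iLIF and 6.43 and 11.7 kb in NACL, and with all peaks 2iLIF had 13.7 and 23.4 kb and NACL the same values, short of a call. Nr5a2, a nuclear receptor of the naive network, had 4 2iLIF-only regions, 36.6 to 418.1 kb from its TSS, under both cuts. Lifr, the LIF receptor, had 3 at equal peak number and 2 with all peaks. LIF pathway genes as a list had 0 of 10 called in either direction at equal peak number, and 1 (Klf4) higher in 2iLIF with all peaks, against 10.9% of all genes.

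Signalling genes of the Nodal and BMP pathways were called in both directions. Among 18 Nodal and Activin genes, 2 were called higher in each medium at equal peak number, against 6.95% (2iLIF) and 5.12% (NACL) of all genes. Smad2, the receptor-activated SMAD of Activin signalling, had 0 kb in both 2iLIF libraries and 13.3 and 9.27 kb in NACL (B9, B12). Lefty1, a secreted Nodal inhibitor and direct Activin target, had 9.82 and 3.5 kb in 2iLIF and 22.9 and 18.7 kb in NACL. Higher in 2iLIF were Gdf3 and the Activin receptor gene Acvr2b, which had 5.26 and 14.3 kb in 2iLIF and 1.58 and 2.10 kb in NACL. With all peaks only the latter pair was called. NACL-only regions at equal peak number had 7 of the 18 genes as their nearest, Smad2, Smad3, Smad7, Skil, Ski, Pmepa1 and Eomes, against 8.14% of all genes, and 2iLIF-only regions 3, Acvr2b, Gdf3 and Smad3, against 10.4%. Smad7, Skil, Ski and Pmepa1 encode inhibitors of TGF-beta and Activin signalling. In the full lists it was 3 and 4 genes, against 2.71% and 19.2%. Of 12 BMP genes, Bmp2 was called higher in 2iLIF at equal peak number (2.33 and 4.18 kb against 0 kb in both NACL libraries) and Id3 and Msx1 in NACL. The shares of all genes were 6.95% and 5.12%. With all peaks Bmp2 and Bmp7 were called higher in 2iLIF and Id3 in NACL, against 10.9% and 0.766% of all genes. Id3, a target of BMP signalling that inhibits differentiation factors, had 0 kb in both 2iLIF libraries under either cut and 1.84 and 4.79 kb in NACL.

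Wnt targets, which CHIR99021 engages in both media, gave 1 of 15 called higher in NACL at equal peak number (Lef1) and none in 2iLIF, against 5.12% and 6.95% of all genes. With all peaks Dkk1 and Sp5 were called higher in 2iLIF and none in NACL, against 10.9% and 0.766%. Tcf7, another TCF/LEF gene, was the nearest gene of 3 NACL-only regions and 1 2iLIF-only region at equal peak number. Of 10 regulators of DNA methylation, 1 was called in each direction at equal peak number, against 6.95% (2iLIF) and 5.12% (NACL) of all genes. Uhrf1, which brings DNMT1 to newly replicated DNA, had 19.5 and 31.0 kb in 2iLIF and 11.02 and 9.06 kb in NACL at equal peak number, and Dnmt3b the order given above. With all peaks Uhrf1 and Tet2 were called higher in 2iLIF and none in NACL, against 10.9% and 0.766%. Tet2, an enzyme that oxidises methylcytosine, was called higher in 2iLIF with all peaks only, with 43.2 and 59.2 kb against 27.1 and 24.7 kb.

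Of 20 primitive endoderm genes, Col4a1, Col4a2 and Pdgfra were called higher in NACL at equal peak number and none in 2iLIF, against 5.12% and 6.95% of all genes, and with all peaks none in either direction. Col4a1 and Col4a2 are neighbours that share a promoter, so their windows overlap. Pdgfra, a receptor that marks primitive endoderm, had 0 kb in both 2iLIF libraries and 1.52 and 1.77 kb in NACL at equal peak number, but 0 and 6.24 kb in 2iLIF with all peaks. In the remaining lists few genes were called, to be read against 6.95% (2iLIF) and 5.12% (NACL) of all genes at equal peak number. With all peaks those shares were 10.9% and 0.766%. Trophoblast genes had 1 of 14 in each direction at equal peak number, Elf5 in 2iLIF and Krt18 in NACL, and with all peaks Elf5 and Krt8 in 2iLIF and none in NACL. Under both cuts the 12 germline genes silenced by DNA methylation had Sycp3 higher in 2iLIF (2.27 and 8.60 kb against 0 kb in NACL) and Sycp1 higher in NACL (2.21 and 2.54 kb against 0 kb in 2iLIF). With all peaks Mael was also called higher in 2iLIF. Cell adhesion genes had, at equal peak number, Itgav and Vcl (on chromosome 14) higher in 2iLIF and Cdh3 in NACL, of 14, and with all peaks Itgav alone. Neural genes had Nes in NACL under both cuts, of 12. No YAP target (9 found), metabolic gene (16) or 2-cell-like gene (10) was called under either cut.

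Clusters of medium-only regions at one gene were uncommon. At equal peak number the 2iLIF-only regions had 2280 nearest genes, 1687 of them with 1 region, and the NACL-only regions 1785, 1463 of them with 1. Tenm4, a teneurin adhesion gene, led the 2iLIF side with 11 regions and no NACL-only region, followed by the cadherin gene Cdh8 (9), the contactin gene Cntn5 (8), the formin gene Diaph2 on chromosome X (7) and Sox9, Rnd3, Oxr1 and Bckdhb (6 each) and Ccser1 (5), 1 of 24 genes with that number, taken by summed region width among those with no NACL-only region. Covered bases in the Tenm4 window were 123.5 and 170.04 kb in 2iLIF (B9, B12) and 59.6 and 67.0 kb in NACL. At Diaph2 they were 14.3 and 21.5 kb in 2iLIF and 0 kb in both NACL libraries. For Sox9, whose regions lie in the gene desert around it, the window held 0 and 5.13 kb in 2iLIF and 0 and 2.97 kb in NACL.

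Zfp423, a zinc-finger factor that cooperates with SMADs in BMP signalling, led the NACL side with 10 NACL-only regions and no 2iLIF-only region, and the full lists gave 7 NACL-only regions. Its window had 14.9 and 22.6 kb in 2iLIF and 54.7 and 73.8 kb in NACL at equal peak number. Of the genes with no 2iLIF-only region, Rbfox2 and Gse1 had 6 each, Pou2f1, Rere, Zfp609, Zfp608, Rai1 and Cd83 had 5 and Egln3 had 4. Pou2f1 (OCT1), a ubiquitous POU factor, had 21.4 and 23.3 kb in 2iLIF and 59.4 and 37.6 kb in NACL. Zfp608 had 0 kb in both 2iLIF libraries and 10.1 and 5.16 kb in NACL, and Zfp609, its paralogue, 14.5 and 23.996 kb against 42.3 and 45.8 kb. Egln3, a HIF prolyl hydroxylase, had 4.44 and 16.4 kb against 25.2 and 27.3 kb. With all peaks 2iLIF B12 exceeded NACL B12 at Zfp608 (9.30 against 5.16 kb) and at Pou2f1 (42.9 against 37.6 kb). Of the genes named on the NACL side, only Zfp423 was called with all peaks. The regions that put Cd83 on this list lie outside its window, which had 0 kb in all 4 libraries. These genes were ranked by the classes themselves, so their coverage describes them and was not tested.

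The 10 strongest regions of each class were looked up in the full lists too, where the 2iLIF lists have more peaks to add than the NACL lists. Ranked by the lower of their percentiles, the 10 strongest 2iLIF-only regions lay above 91.7% to 99.99% of the peaks of both 2iLIF libraries, and in the full lists 9 of them had no NACL peak. The top one (chr13:3372638-3374330, intergenic, 164.9 kb from Gdi2) had no H3K27ac peak in any of the 4 ESC libraries, and 42.4% of its 500 bp window is masked repeat. The next was in an intron of Dglucy (chr12:100806815-100817673), ranked above 98.7% of the peaks of both libraries and held H3K27ac and SOX2 peaks in all 4 ESC libraries of each antibody. The others lay near Yipf5, Cd47, Plk2, St5, Ang5, Atp23, Abhd17c and Bnc2. The 10 strongest NACL-only regions lay above 83.1% to 92.95% of the NACL peaks, near Dmrtb1, Dnah14, Khdrbs1, Zdhhc1, Zfp507, Wdr86, Adk, Anapc16, Ralgps2 and Zfhx3. In the full lists 1 of them, in an intron of Adk (chr14:21085671-21090625), had no 2iLIF peak, and 2 gained peaks of both 2iLIF libraries.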

How the data were processed

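CUT&RUN was made with an antibody against H3K4me1 in SGGC clones B9 and B12, each grown in 2iLIF and in NACL. Peak lists were deposited with whole-number signal columns (total and max signal, here columns 4 and 5). Per the labels and the methods, alignment by the authors used Bowtie2 2.3.4.1 on GRCm38 after trimming (cutadapt 1.18), with SAMtools 1.9 and Picard 2.9.1 for filtering, and peaks were called over the IgG control of the condition with SEACR, whose version was not named. Histone lists are named relaxed, while the methods describe the modes the other way round. The deposited signal is coverage on the scale of each library, so only its rank within a library was used, and read depth is unknown.

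Peaks were merged at 1 bp overlap, with all peaks and with the 24700 highest by max signal per library. Distances and places came from GENCODE M21, for 132629 transcript starts and 21938 protein-coding genes, and sequence from RefSeq (Python 3.11.15, numpy 2.4.6, pandas 2.3.3, pysam 0.24.0, samtools 1.23.1). Tests over libraries were exact permutation tests of 2 against 2. The same clones were grown in both media, so clone pairs the libraries, and sign flips over the 2 pairs were the paired alternative, which cannot give p below 0.5. Scripts were tested on simulated peaks. Replicates are clones of one line, so p-values measure the spread between them. Genes with the most regions of one medium at equal peak number and none of the other medium were named, 10 per class (1 gene is not reported here), then the genes of the lists that were called or had a medium-only region (by count where many), and the 10 strongest regions per class. The regions, gene lists and motif strings were chosen with earlier results of these data known. Alternatives were overlap, gap, peak number, ranking column, flank width, fold limit, distance to TSS and each library left out. Equal covered bases, chromosome 14 left out and gene windows with a library left out at equal peak number were chosen after seeing the data.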

Additional observations from a re-analysis of the deposited data

Results flagged for a closer look

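In 2 measures the clones moved in opposite directions between media, and the difference between the clones was not tested, since each clone has 1 library per medium. The share of H3K4me1 peaks within 1 kb of a TSS, 2iLIF minus NACL, was -3.88 percentage points in B9 and 1.36 in B12 with all peaks, and -4.04 and 4.48 at equal peak number. Median peak width, 2iLIF minus NACL, was -165.0 bp in B9 and 240.0 bp in B12 with all peaks, and -26.5 and 1760.0 bp at equal peak number. The positive values all come from 2iLIF B12, the library that covered the most bases (206.1 Mb against 79.5 to 88.9 Mb).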

How the results depend on the processing

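Regions in a class, genes called in windows and the share near a TSS were sensitive to how much of each list was used. The number of 2iLIF-only regions (6854) was 3185 at equal peak number, 3814 with the stronger 50% of peaks, 3117 when ranked by total signal, 28108 when 1 library of the medium was enough and 912 at equal covered bases. The number of NACL-only regions (661) was 2241, 1926, 4978 and 3563 at equal peak number, by total signal, with 1 library and at equal covered bases. All-4 regions (12616) numbered 5880 with the stronger 50%, 25014 with 1 library and 6876 at equal covered bases. With a library left out, 2iLIF-only regions ranged from 8887 to 27091 and NACL-only regions from 769 to 4183, and a library left out can only add to a class by construction. The share of 2iLIF-only regions near a TSS (7.70%) was 6.217% at equal peak number, 5.154% at equal covered bases and 7.565% to 9.394% with a library left out, and that of all-4 regions (8.08%) 7.024% at equal covered bases. The ratio of peak width ranged from 0.4513 to 0.66 for 2iLIF-only and from 0.777 to 0.801 for NACL-only peaks with a library left out.

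Genes called higher in 2iLIF (2396) numbered 1525 at equal peak number, 764 at equal covered bases, 5385 without 2iLIF B9 at equal peak number, and 2512 to 10788 with a library left out. Genes called higher in NACL (168) numbered 1123, 2525 and, at equal peak number, 1393 without 2iLIF B9, 3185 without 2iLIF B12, 2240 without NACL B9 and 2171 without NACL B12; with all peaks a library left out gave 189 to 2574. The difference between media in the share of peaks near a TSS changed sign to 0.2186 at equal peak number and ranged from -4.614 to 2.095 with a library left out. That in peak width (37.5 bp) was 866.8 bp at equal peak number and ranged from -354.0 to 429.0 bp with a library left out (-151.5 without NACL B9), and that in SOX2 from -0.6137 to 4.134. The causes were not tested. With clone as a replicate block the paired differences were -1.259 percentage points near a TSS, 37.5 bp in width, 12.75 percentage points for H3K27ac (8.92 to 16.6 with a library left out) and 1.76 for SOX2, and no call changed (exact sign flips, p from 0.5 to 1). Of the values tracked for these comparisons, 86 were labelled unchanged, 37 moved and 5 changed sign. Of the counts of naive, formative and ERK genes called, 40 were labelled unchanged and 38 moved. A count was unchanged within 1.5 times, a share within its 95% confidence interval and a width ratio within the SD of the libraries. A tested difference only had to keep its sign, whatever its size, as with 866.8 bp against 37.5 bp for width. Read depth is unknown, so the absence of a peak is a statement about the lists.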

Other observations

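Clone B12 had a smaller share of its peaks on chromosome 14 than clone B9 in all libraries analysed, whatever the antibody or medium. The share was 3.91% to 4.53% (median 4.16%) in the 10 B9 libraries and 1.65% to 3.07% (median 2.33%) in the 23 B12 libraries, with no overlap. Chromosome 14 makes up 4.58% of the assembled length. The cause was not tested.

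Chromosome X makes up 6.28% of that length and held 1.46% (B9) and 1.81% (B12) of the 2iLIF H3K4me1 peaks at equal peak number, against 0.781% and 0.688% of the NACL peaks, so both clones had the higher share in 2iLIF.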
